A study of Danio rerio with 14 samples.

Results

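The visual opsin genes of the zebrafish were followed in whole larvae of the wild type AB strain that had been raised in wastewater effluent. Visual opsins are the light-sensing receptors of rods and cones. Each binds a retinal chromophore, and the opsin decides which wavelengths a cell absorbs. An activated opsin switches on the G protein transducin, which activates a phosphodiesterase that breaks down cyclic GMP, so that cation channels close and the cell signals light. Zebrafish carry a rod opsin and cone opsins for ultraviolet, blue, green and red light. The green and the red opsin genes each lie side by side as a cluster of copies, and in the eye the copies of a cluster are switched on at different ages and in different parts of the retina.

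The group was defined by name as 9 genes, namely the rod opsin rho, the ultraviolet opsin opn1sw1, the blue opsin opn1sw2, the green opsins opn1mw1, opn1mw2, opn1mw3 and opn1mw4, and the red opsins opn1lw1 and opn1lw2. Probes were assigned through the RefSeq accession printed on the array, which gave 21 of 43603 probes, for 8 of the 9 genes. No probe was matched to opn1lw1, which is not analysed here. In the gene table used for names, opn1mw1 to opn1mw4 followed each other without another gene between them, and opn1lw1 stood next to opn1lw2. Copies within these clusters are similar in sequence, and how far a probe for one copy also binds another was not tested. The rod opsin had 8 probes, opn1sw2 had 1 and each of the other genes had 2. The probes of a gene are numbered here from the one with the highest mean signal, and probe 1 stands for the gene in counts of genes.

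The control group (n = 4) was kept in E3 embryo medium with 0.05% DMSO. The effluent groups received secondary effluent of a Tucson treatment plant, reconstituted in the same medium with DMSO of at most 0.05%, at 0.5x (n = 5) or 1x strength (n = 5). Exposure ran from 3 h after fertilisation for 5 days at 28 °C, in 4 mL that was renewed every 24 h. Each replicate was 1 well of 25 to 30 pooled larvae, so p-values measure the spread between wells. The sources used here do not say whether wells shared a clutch. Because RNA came from whole larvae, fewer photoreceptors and less opsin RNA per photoreceptor cannot be told apart.

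On the 14 one-colour arrays, 85.4% to 90.9% of probes were well above background. Values are given as the log2 signal relative to the 75th percentile of the array, and differences as log2 fold changes between group means, tested with limma at an adjusted p of 0.05 over 38803 probes. A log2 value can be compared between groups for 1 probe, not between probes. Control replicates 1 and 2 stood apart: on the first principal component (38.1% of the variance) they lay at -120 and -80.5, and all other arrays between -17.5 and 44.4. Both were scanned on the first of the 2 scan days that the file headers give, with 1x replicates 1 to 3 and 0.5x replicate 1, and the rest were scanned on day 2. Differences within each day are therefore given beside many of the pooled ones. Where none is given, the part of the scan day in the pooled value is not shown. Within day 1 the 0.5x group was a single array.

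Markers of the photoreceptors other than opsins were followed too. All 12 measured of 15 cone markers, and all 10 measured of 12 rod markers, were well above background on every array. Measured markers had already passed the filter on dim probes, so these counts say nothing particular about photoreceptors. The mean of the cone markers per array was 4.38 to 4.86 in controls, 4.33 to 4.62 at 0.5x and 4.23 to 4.42 at 1x. That of the rod markers was -0.47 to 0.09, -0.42 to -0.25 and -0.35 to -0.25 in the same order. Control replicates 1 and 2 held the highest cone means, at 4.86 and 4.76, and replicates 3 and 4 had 4.38 and 4.51. At 1x against control, 6 cone markers were lower and 1 was higher, and 1 rod marker was lower, where 16.3% of all genes were lower and 10.3% higher. Their part in the opsin values was not tested.

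At 1x the opsin genes did not move as a group. The green opsin opn1mw4 was above background on every effluent array and on no control array, the rod opsin rho fell relative to control, and 5 of the 7 genes with a probe that could be tested did not pass. Because opn1mw4 passed the filter on dim probes only through the effluent groups, where it is high, the filter favoured a difference from control. Counts that hold opn1mw4 therefore support nothing. With it, 7 of 18 probes passed, 2 higher and 5 lower, where 28.8% of all probes tested passed (9.86% higher and 18.9% lower). Without it, 1 of 6 genes passed, where 26.6% of all genes did by 1 probe each. Of the 17 probes left, 6 passed, 5 of them probes of rho, beside the 28.8% of all probes. On probes 1 to 5 of rho every 1x array lay below every control, as for 13.9% of all probes, and opn1mw4 was separated upward, as for 6.77%.

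At 0.5x, opn1mw1, another green opsin, fell relative to control. With opn1mw4, 2 of 7 genes and 2 of 18 probes passed, and without it 1 of 6 genes and 1 of 17 probes, where 9.29% of probes (3.52% higher and 5.77% lower) and 8.7% of genes did. The median change of the 6 genes measured in controls was -0.21 at 1x, against -0.05 for all genes, and -0.48 at 0.5x, against -0.04 for all genes. The 0.5x median was -0.85 within day 1, where 0.5x was a single array, and -0.14 within day 2. At 1x it was -0.56 within day 1 and 0.25 within day 2.

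**Figure D1:**
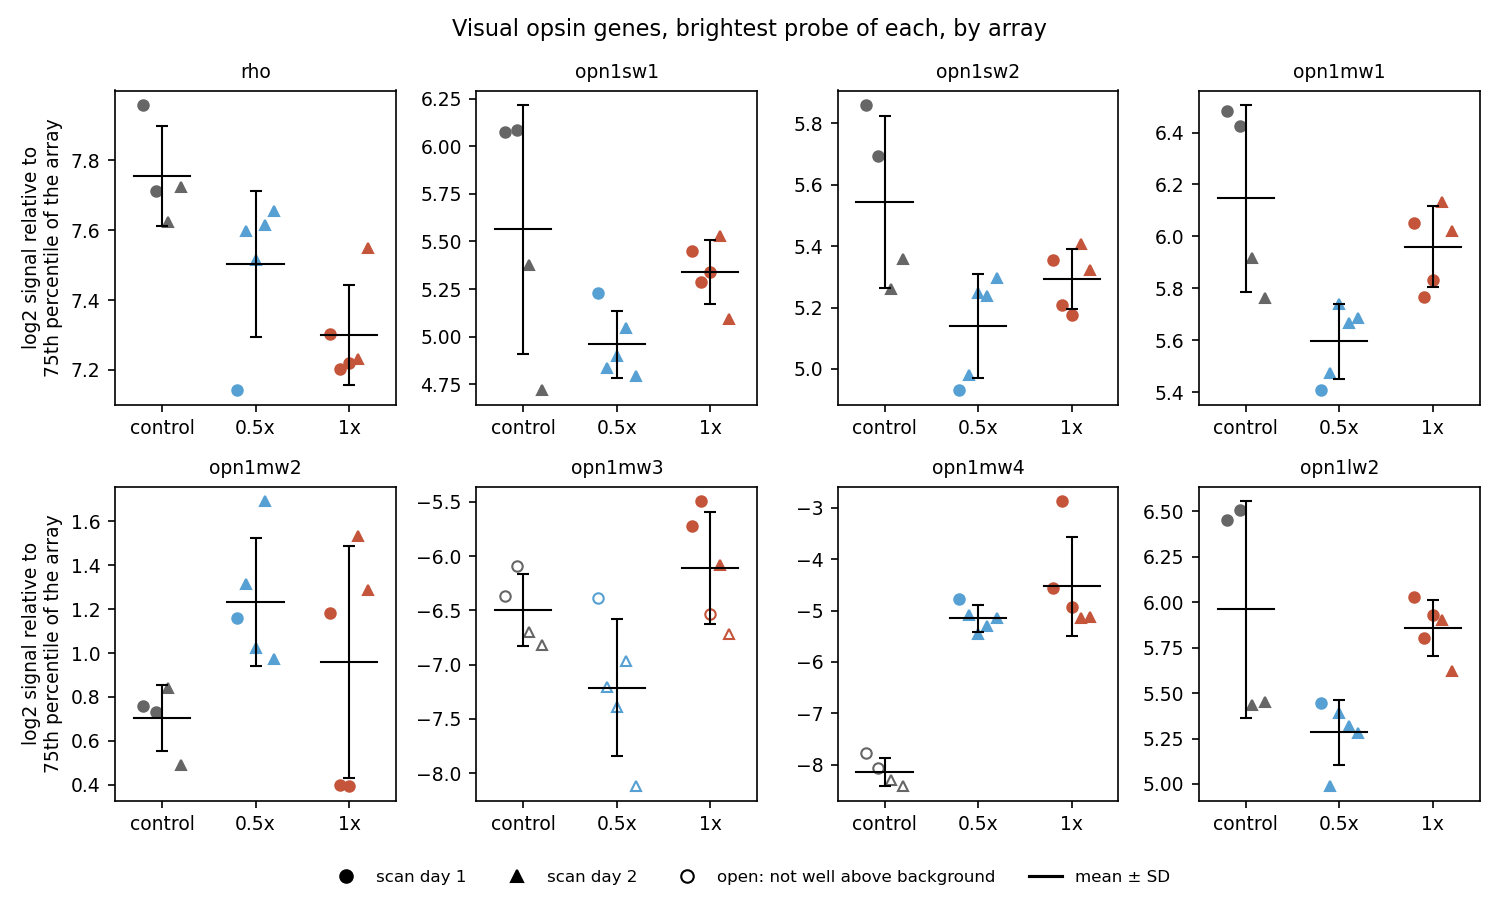
Signal of the brightest probe of each of the 8 visual opsin genes on the 14 arrays, as log2 relative to the 75th percentile of the array, for control, 0.5x and 1x. Circles were scanned on day 1 and triangles on day 2, open symbols were not well above background, and bars give the mean ± SD. The opn1mw4 probe was below background in every control and between -5.46 and -2.86 on every effluent array, and rho at 1x lay below every control.

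The rod opsin rho carries dim-light vision. Its probe 1 read 7.30, 7.20, 7.22, 7.23 and 7.55 on the 1x arrays, against 7.96, 7.71, 7.62 and 7.72 in controls. All 1x arrays lay below all controls, with 1x replicate 5 nearest to them. The mean was 7.30 ± 0.14 at 1x (SD, n = 5) and 7.75 ± 0.14 in control larvae (SD, n = 4), a log2 fold change of -0.45 ± 0.12 SE (0.731-fold, adjusted p = 0.0174). Probes 2 to 5 fell likewise, and over probes 1 to 5 the change ran from -0.47 to -0.36, with adjusted p between 0.0126 and 0.0362. None of these 5 probes overlapped between the groups.

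The other 3 rho probes did not pass. Probes 6, 7 and 8 had values of 0.05, 0.29 and 0.26 at 1x against control (adjusted p = 0.81, 0.358 and 0.449). On probe 7 the controls spread widely, at 1.04, 1.80, 2.62 and 2.07, and enclosed the 1x arrays, at 2.48, 1.98, 1.97, 2.24 and 2.21. Control replicate 1 was the lowest array on probes 6, 7 and 8 but the highest on probes 1, 2, 4 and 5. All 8 probes were well above background on every array. They carry the same gene name, so a fall of rho holds for 5 of its 8 probes.

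The size of the fall depended on the controls and on the scaling. Within scan day 1, probe 1 was lower at 1x by -0.59 (adjusted p = 0.0125), and within day 2 by -0.28 (adjusted p = 0.256). All 8 probes were below 0 within day 2, between -0.30 and -0.06, and none passed. Without control replicates 1 and 2, probe 1 stood at -0.37 (adjusted p = 0.107) and none of the 5 probes passed. Leaving out control replicate 1 alone ended the call of probe 1 (adjusted p = 0.0587), probe 2 (adjusted p = 0.06) and probe 3. Probe 3 also lost its call without control replicate 2 or any of 1x replicates 1 to 4 (adjusted p up to 0.0878). With quantile normalization probe 1 stood at -0.20 (adjusted p = 0.0986) and probes 1 to 4 did not pass, and in the authors' deposited matrix it was at -0.36 (adjusted p = 0.0506). As the mean of all its probes, rho was not called.

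At 0.5x, the mean of rho probe 1 lay between those of the other groups. The arrays read 7.14, 7.60, 7.51, 7.61 and 7.65, with 0.5x replicate 1 well below the rest. The difference from control was -0.25 ± 0.12 SE (adjusted p = 0.184), and over the 8 probes it ran from -0.30 to 0.21 with none past the threshold. Probe 1 had -0.69 within day 1, where 0.5x was a single array, and -0.08 within day 2. The rho probes differed between 1x and 0.5x by -0.28 to 0.19, and none passed. Probe 5 (-0.28, adjusted p = 0.179) passed when 0.5x replicate 1 was left out (adjusted p = 0.0353).

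The ultraviolet opsin opn1sw1 is the pigment of the short single cones. Probe 1 read 5.45, 5.29, 5.34, 5.53 and 5.09 at 1x, against 6.07, 6.09, 5.37 and 4.72 in controls. The controls spanned the whole range of the 1x arrays, with replicates 1 and 2 above them all and replicate 4 below. The difference was -0.22 ± 0.23 SE (adjusted p = 0.482), at -0.72 within day 1 and 0.26 within day 2. Without control replicate 4 it passed (adjusted p = 0.0358).

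At 0.5x the same probe read 5.23, 4.84, 4.90, 5.04 and 4.79, a value of -0.60 ± 0.23 SE against control (adjusted p = 0.0978). It was -0.85 within day 1 and -0.15 within day 2, and passed without control replicate 4 (adjusted p = 0.0053). Probe 2 of opn1sw1 had 0.46 ± 0.24 SE at 1x (adjusted p = 0.158; adjusted p = 0.0359 without control replicate 3) and -0.12 at 0.5x (adjusted p = 0.748). At 1x against control the 2 probes therefore differed in sign, and neither passed.

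The blue opsin opn1sw2, the pigment of the long single cones, had 1 probe. It read 5.35, 5.21, 5.18, 5.41 and 5.32 at 1x, against 5.86, 5.69, 5.26 and 5.36 in controls. Control replicates 1 and 2 were higher than every 1x array, and replicates 3 and 4 lay among them. The difference was -0.25 ± 0.13 SE (adjusted p = 0.166), at -0.53 within day 1 and 0.06 within day 2. At 0.5x, with 4.93, 4.98, 5.25, 5.24 and 5.30, it was -0.40 ± 0.13 SE (adjusted p = 0.066). That comparison passed without control replicate 3 or 4 (adjusted p as low as 0.0298). It stood at -0.85 within day 1, where 0.5x was a single array, and at -0.12 within day 2.

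Among the green opsins, which serve one member of the double cones, opn1mw1 is the copy switched on early in larvae. Its probe 1 read 5.41, 5.48, 5.74, 5.67 and 5.69 at 0.5x, against 6.48, 6.42, 5.92 and 5.76 in controls. Every 0.5x array lay below every control, by a narrow margin for control replicate 4. Such separation, in the lower direction, was seen for 6.9% of all probes. The mean was 5.60 ± 0.15 at 0.5x (SD, n = 5) and 6.15 ± 0.36 in controls (SD, n = 4), a log2 fold change of -0.55 ± 0.15 SE (0.682-fold, adjusted p = 0.0385). Probe 2 had -0.54 ± 0.18 SE (adjusted p = 0.0659; as low as 0.0217 without control replicate 3 or 4).

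The fall of opn1mw1 at 0.5x was -1.05 within day 1, where it rests on the single 0.5x array, and -0.20 within day 2 (adjusted p = 0.439). Without control replicates 1 and 2 it was -0.25 (adjusted p = 0.436). The call was also lost without control replicate 1 or 2 alone or any of 0.5x replicates 1 to 4 (adjusted p up to 0.132), and it held in 15 of 26 alternatives. At 1x, probe 1 read 6.05, 5.77, 5.83, 6.13 and 6.02. The difference from control was -0.19 ± 0.15 SE (adjusted p = 0.369), at -0.57 within day 1 and 0.24 within day 2. All 1x arrays lay above all 0.5x arrays, as for 3.88% of all probes, with a difference of 0.37 ± 0.14 SE (adjusted p = 0.16).

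The 2 probes of opn1mw2, the next gene of the green cluster, did not follow each other. Probe 1 read 1.16, 1.32, 1.02, 1.69 and 0.97 at 0.5x, against 0.76, 0.73, 0.84 and 0.49 in controls. All 0.5x arrays lay above all controls, as for 3.84% of all probes, and the difference of 0.53 ± 0.23 SE did not pass (adjusted p = 0.138). Probe 2 was at -0.39 ± 0.18 SE in the same comparison (adjusted p = 0.169), and at -0.60 without control replicate 4 (adjusted p = 0.0127). At 1x against control, probe 1 had 0.25 (adjusted p = 0.423) and probe 2 had 0.19 (adjusted p = 0.456). On probe 1 the 1x arrays fell apart into 0.40 and 0.39 in replicates 2 and 3, and 1.18, 1.53 and 1.29 in replicates 1, 4 and 5.

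Set against 0.5x, the 1x group had on probe 2 of opn1mw2 a difference of 0.58 ± 0.17 SE (adjusted p = 0.0786). All 1x arrays lay above all 0.5x arrays, as for 3.88% of all probes. The difference passed without control replicate 4 or 0.5x replicate 1 (adjusted p as low as 0.0189). Leaving out a control array changes only the shared estimate of the spread here, not the difference itself. Probe 1 had -0.27 (adjusted p = 0.468).

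The green opsin opn1mw3 could not be tested. Neither probe was well above background on any of the control or 0.5x arrays, and each was so on 3 of 5 arrays at 1x. Probe 1 read -5.72, -5.49, -6.53, -6.09 and -6.72 at 1x, against -6.37, -6.09, -6.70 and -6.82 in controls, and the groups overlapped. The arrays above background were 1x replicates 1, 2 and 4 on probe 1 and replicates 2, 4 and 5 on probe 2.

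The last gene of the cluster, opn1mw4, is the green copy tuned to the longest wavelengths, which in zebrafish appears later and towards the edge of the retina. Its probe 1 read -4.56, -2.86, -4.94, -5.15 and -5.13 at 1x and -4.77, -5.08, -5.46, -5.30 and -5.15 at 0.5x, against -7.78, -8.07, -8.31 and -8.42 in controls. Each of the 10 effluent arrays was well above background, and none of the 4 controls was. The effluent groups lay far above the controls and overlapped each other, with 1x replicate 2 the highest array. Because the controls were below background, the change is given against a floor. The effluent mean is compared with the control mean after each control array is raised to its lowest signal among probes well above background.

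Against that floor opn1mw4 was 2.80-fold higher at 1x than in controls and 1.82-fold higher at 0.5x. These are not strict lower limits, because a probe above an array's floor can still lack the flag. Probe 1 of opn1mw3 did so on 1x replicate 3, at -6.53 over a floor of -6.59. The 1x fold includes replicate 2 at -2.86, and the other 1x arrays lay between -5.15 and -4.56. Both folds hold only for the background subtraction of the processed signal. The measured means were -4.53 ± 0.96 at 1x (SD, n = 5) and -5.15 ± 0.26 at 0.5x (SD, n = 5), and -8.14 ± 0.28 in controls (SD, n = 4). The adjusted p of 0.000117 at 1x and 0.000473 at 0.5x belong to the limma fit of these measured signals and not to the folds against the floor. Keeping a probe through the effluent groups alone favours a difference from control, so these p-values are no support. On both scan days the controls were below background and the effluent arrays above it. The 1x and 0.5x groups, both above background, differed by 0.62 ± 0.35 SE (adjusted p = 0.302).

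The opn1mw4 signal was dim, and the size of its fitted difference changed with the processing. With another background correction, normexp with an offset of 50 signal units, the fitted differences were 0.39 at 1x (adjusted p = 0.139) and 0.30 at 0.5x (adjusted p = 0.316). Both lay below the values against the floor, which are 1.49 and 0.87 on the log2 scale. The offset is added to every signal and by itself narrows differences of dim probes. This setting therefore cannot show how far the difference depends on the way background was taken off. In the authors' deposited matrix the 0.5x difference was 2.41 (adjusted p = 0.0522). Probe 2 of opn1mw4 was above background on 0 of 14 arrays, where it read -8.76 to -7.65. The signal in effluent larvae thus rests on 1 of 2 probes.

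**Figure D2:**
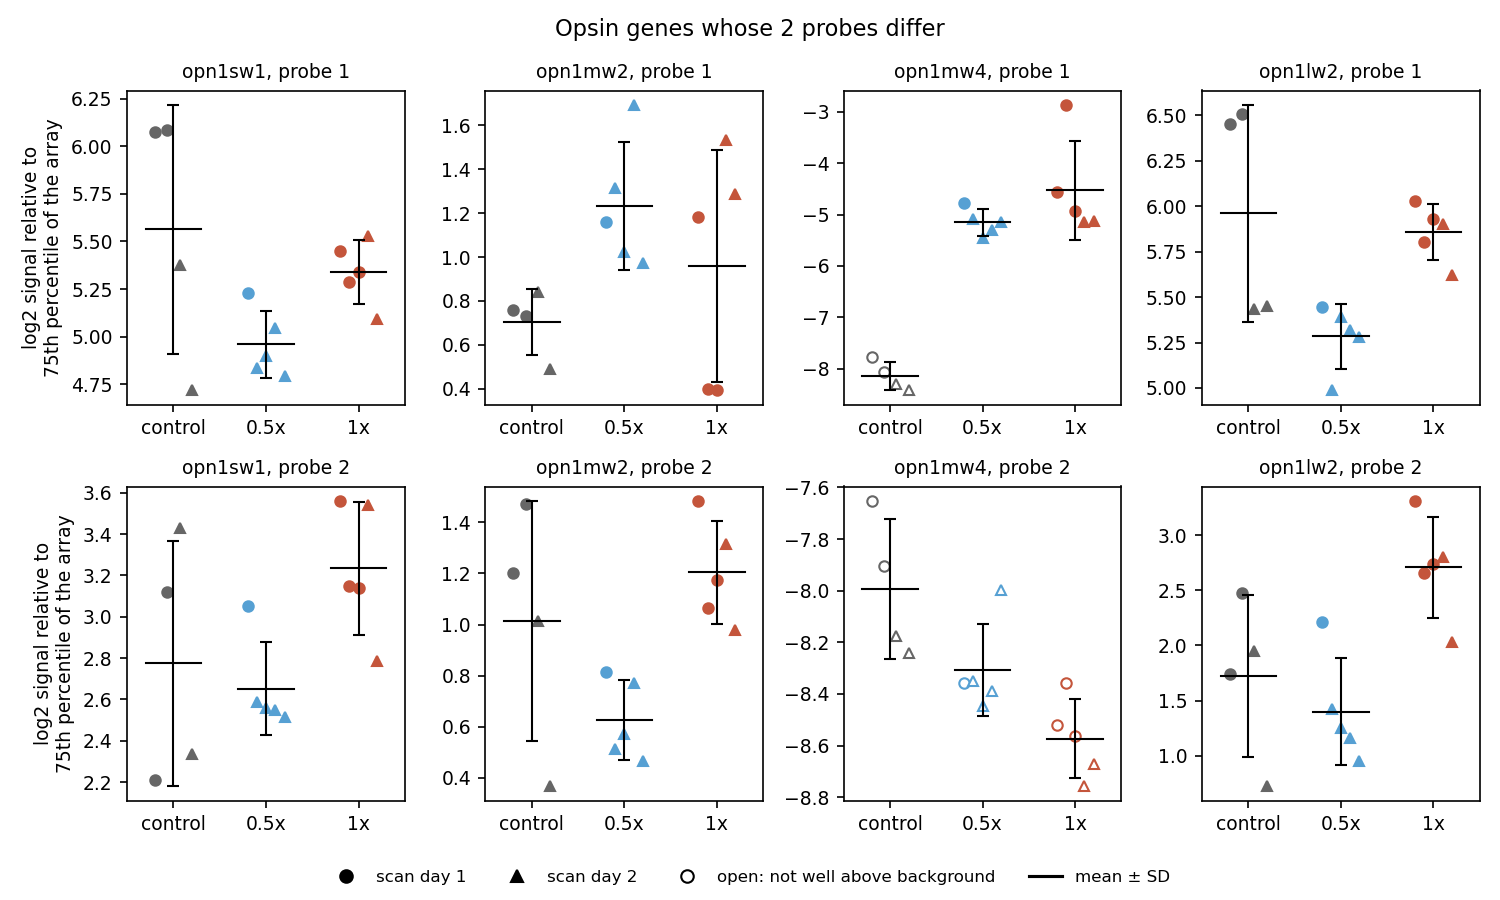
Both probes of opn1sw1, opn1mw2, opn1mw4 and opn1lw2 on every array, as log2 signal relative to the 75th percentile, with probe 1 above probe 2. Circles were scanned on day 1 and triangles on day 2, open symbols were not well above background, and bars give the mean ± SD. Probe 2 of opn1mw4 was at background on all 14 arrays, and control replicates 1 and 2 were the highest arrays on probe 1 of opn1lw2, whereas 4 of the 5 1x arrays were on its probe 2.

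The red opsin opn1lw2, the larval copy of its cluster, is made in the partner member of the double cones. Probe 1 read 6.03, 5.80, 5.93, 5.90 and 5.62 at 1x and 5.44, 4.99, 5.39, 5.32 and 5.28 at 0.5x, against 6.45, 6.51, 5.44 and 5.45 in controls. Control replicates 1 and 2 exceeded every effluent array, whereas replicates 3 and 4 lay below every 1x array. At 1x against control the difference was -0.10 ± 0.21 SE (adjusted p = 0.736), at -0.56 within day 1 and 0.32 within day 2. At 0.5x it was -0.68 ± 0.21 SE (adjusted p = 0.0587), and it passed without control replicate 3 or 4 (adjusted p as low as 0.0144). The 0.5x difference was -1.03 within day 1, on a single 0.5x array, and -0.20 within day 2. All 1x arrays lay above all 0.5x arrays, as for 3.88% of all probes, with a difference of 0.57 ± 0.20 SE (adjusted p = 0.123).

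Probe 2 of opn1lw2 gave another picture at 1x. It read 3.31, 2.66, 2.74, 2.81 and 2.03 at 1x, against 1.74, 2.48, 1.95 and 0.72 in controls. Of the 1x arrays 4 lay above all controls and replicate 5 lay among them. This probe was higher at 1x by 0.99 ± 0.33 SE (1.98-fold, adjusted p = 0.0392), by 0.79 within day 1 (adjusted p = 0.0675) and by 1.09 within day 2 (adjusted p = 0.142). The call was lost without control replicate 1 or 4 or any of 1x replicates 1 to 4 (adjusted p up to 0.101).

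On the 0.5x arrays probe 2 read 2.21, 1.42, 1.25, 1.16 and 0.95, with replicate 1 the highest and the groups overlapping. It was higher at 1x than at 0.5x by 1.31 ± 0.31 SE (2.48-fold, adjusted p = 0.0306). This was the single opsin probe of 18 that passed in that comparison, where 4.08% of all probes did (1.74% higher and 2.34% lower). The difference was 0.69 within day 1 (adjusted p = 0.704), where 0.5x was a single array, and 1.22 within day 2 (adjusted p = 0.0926), 0.72 with slide as a block (adjusted p = 0.183) and 0.336 in the authors' deposited matrix (adjusted p = 0.647). Leaving out any of 1x replicates 1 to 4 or 0.5x replicates 2 to 5 ended the call (adjusted p up to 0.0862).

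Taken by 1 probe each, limma called 0 of 7 opsin genes between 1x and 0.5x, where 4.32% of all genes passed. An unadjusted p under 0.05 was reached by 2 of these genes and by 7 of the 18 probes. The share of all genes or probes at that unadjusted level is not given here, so these counts support nothing. With the mean of a gene's probes in place of 1 probe, limma called 1 gene, opn1lw2. The median of the 7 genes was 0.37, with 5 of them above 0, against -0.02 for all genes. Without opn1mw4 the median of the other 6 was 0.26. Both comparisons with control share the same 4 control arrays, so their values for a gene are not independent.

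**Figure D3:**
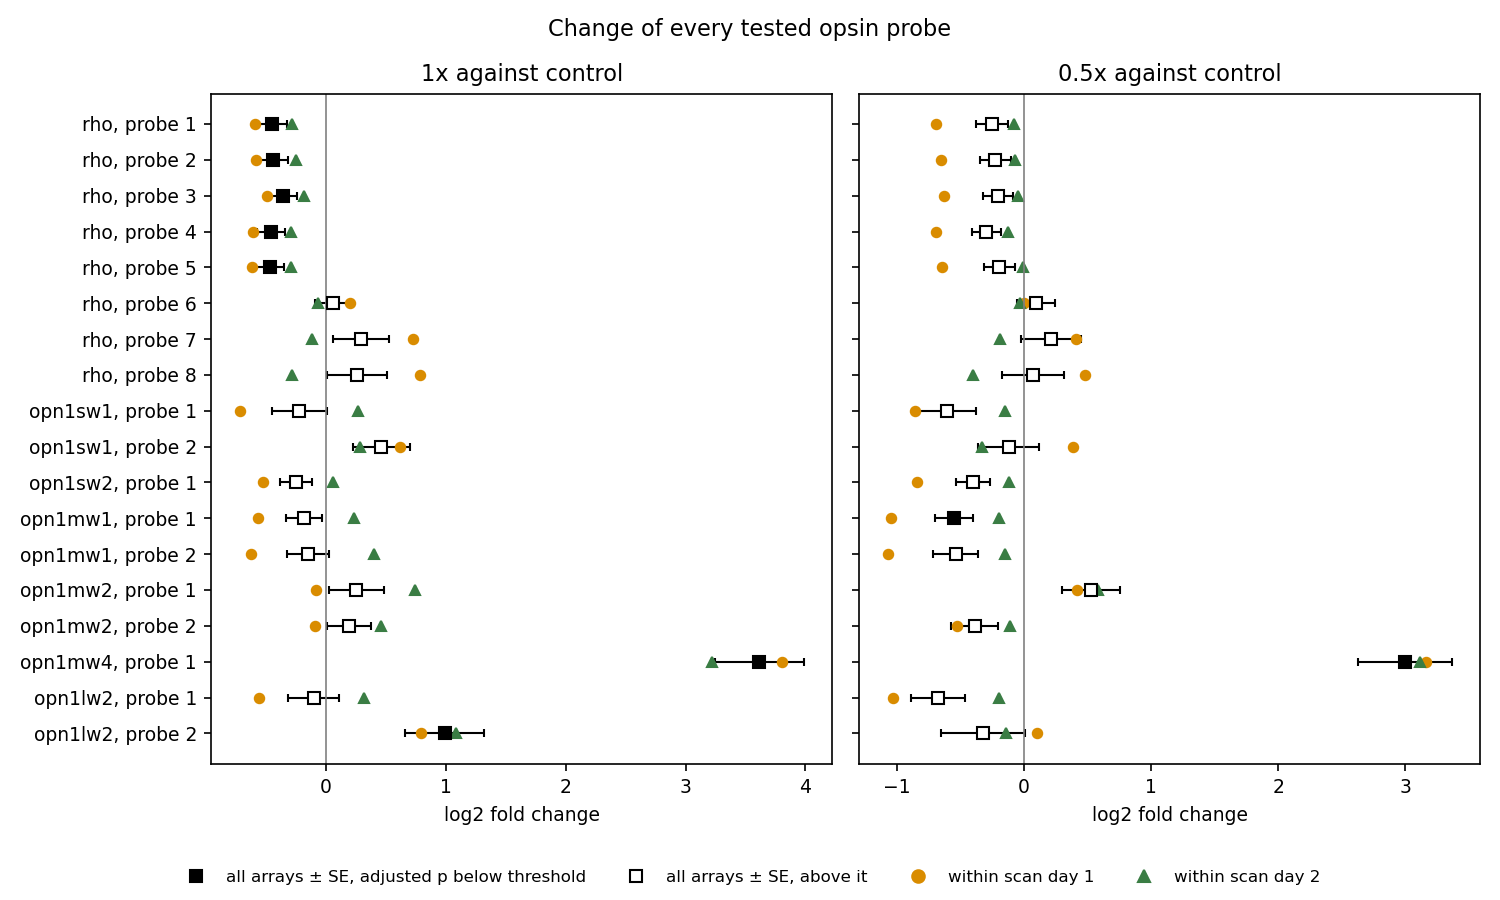
Log2 fold change of the 18 tested opsin probes at 1x and at 0.5x against control. Squares give the estimate over all arrays ± SE, filled where the adjusted p was below 0.05, circles the difference within scan day 1 and triangles that within scan day 2. The cone opsins other than opn1mw4 mostly lay further to the left within day 1 than within day 2, whereas opn1mw4, whose control arrays were below background, lay between 3.12 and 3.81, values that are no measured folds.

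Across scan days, probe 1 of 4 cone opsins shared a pattern at 1x. On it, opn1sw1, opn1sw2, opn1mw1 and opn1lw2 had -0.72, -0.53, -0.57 and -0.56 within day 1, and 0.26, 0.06, 0.24 and 0.32 within day 2. Each was therefore lower at 1x on one day and higher on the other. All 4 passed within day 1, where 18073 of all 38803 probes tested did, but not within day 2, where 1556 did. Their second probes did not all follow: opn1mw1 had -0.63 and 0.40 on days 1 and 2, but opn1sw1 had 0.62 and 0.28 and opn1lw2 0.79 and 1.09. The median over the 6 genes measured in controls was -0.56 within day 1 and 0.25 within day 2. Control replicates 1 and 2, the day 1 controls, were higher than controls 3 and 4 on probe 1 of each of the 4 cone opsins. In the order above, control means were 6.08, 5.78, 6.45 and 6.48 on day 1 and 5.05, 5.31, 5.84 and 5.44 on day 2. Those of the 1x arrays were 5.36, 5.25, 5.88 and 5.92 on day 1 and 5.31, 5.37, 6.08 and 5.76 on day 2. Whether the scan day or these control wells set the difference was not tested.

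The proteins that carry the opsin signal onward were counted as a list of 60 cascade genes, of which 41 were measured. At 1x, 15 were lower than in controls and 0 were higher, where 16.3% of all genes were lower and 10.3% higher. The list median was -0.35, at -0.65 within day 1 and -0.03 within day 2. Without control replicates 1 and 2, 4 were lower and 3 higher, where 2256 of all 38803 probes were lower and 2022 higher. The 3 higher were gnat1, pde6a and guca1c. The guanylate cyclase activator guca1aa fell by 1.52 on the log2 scale (adjusted p = 0.000311) and the inhibitory phosphodiesterase subunit pde6ga by 1.29 (adjusted p = 0.000418). Both fell within each day, guca1aa by 1.75 and 1.21 and pde6ga by 1.31 and 1.20. The disc rim protein prph2a (-0.92, adjusted p = 0.0125) and the calcium sensor rcvrna (-0.84, adjusted p = 0.0131) fell too. Within days 1 and 2 prph2a had -1.45 and -0.41 and rcvrna -1.36 and -0.28, and without control replicates 1 and 2 neither passed (adjusted p = 0.0977 and 0.106).

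The partners of the opsins did not all move with rho. Rod transducin gnat1 had 0.32 at 1x against control (adjusted p = 0.241) and cone transducin gnat2 had -0.25 (adjusted p = 0.209; 1 of 3 probes down). Within days 1 and 2 gnat1 had 0.05 and 0.52, and without control replicates 1 and 2 it passed as higher (adjusted p = 0.0287). The arrestin of rods, saga, had -0.24 (adjusted p = 0.17). The cone arrestins arr3a (-0.32, adjusted p = 0.0399) and arr3b (-0.62, adjusted p = 0.00636), which shut off activated cone opsins, fell. Within days 1 and 2 arr3a had -0.58 and -0.04 and arr3b -0.85 and -0.41, and without control replicates 1 and 2 neither passed (adjusted p = 0.384 and 0.0693). The catalytic cone phosphodiesterase pde6c had -0.31 (adjusted p = 0.0738).

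At 0.5x against control, 1 cascade gene rose and 4 fell, where 4.36% of all genes were higher and 4.33% lower. The cyclase activator guca1c rose by 0.93 (adjusted p = 0.000964), and prph2a (-0.90, adjusted p = 0.03), rcvrna (-0.72, adjusted p = 0.0484), prph2lb (-0.68, adjusted p = 0.0417) and the signal-terminating rgs9b (-0.55, adjusted p = 0.0329) fell. When control replicates 1 and 2 were left out, guca1c passed (adjusted p = 0.00248) and 0 cascade genes were lower, with adjusted p from 0.273 to 0.464 for these 4. Of all 38803 probes, 375 were higher and 231 lower in that setting. Values of gnat1 (-0.15), gnat2 (-0.29), saga (0.22), arr3a (0.12), arr3b (0.10) and pde6c (0.10) did not pass.

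In larvae at 1x, 8 cascade genes were lower and 0 higher than at 0.5x, where 2.65% of all genes were lower and 1.67% higher. These falls included pde6ga (-1.31, adjusted p = 0.000418), guca1aa (-1.12, adjusted p = 0.00271), the cone phosphodiesterase subunit pde6ha (-0.84, adjusted p = 0.000585) and guca1d (-0.77, adjusted p = 0.0266). The cone arrestins arr3a (-0.44, adjusted p = 0.0275) and arr3b (-0.72, adjusted p = 0.00589) were among the 8. On the same arrays the median opsin gene was at 0.37 (0.26 without opn1mw4), and 0 of 7 opsin genes passed. Values of saga (-0.46, adjusted p = 0.0508), pde6c (-0.41, adjusted p = 0.0649), gnat1 (0.46, adjusted p = 0.171) and gnat2 (0.04, adjusted p = 0.884) did not pass. The cascade median was -0.11, at -0.0035 within day 1, where 0.5x was a single array, and -0.11 within day 2. In the authors' deposited matrix 0 of 36346 probes passed in this comparison. The groups were unevenly spread over slides, and how far this lowered differences in the matrix was not tested.

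**Figure D4:**
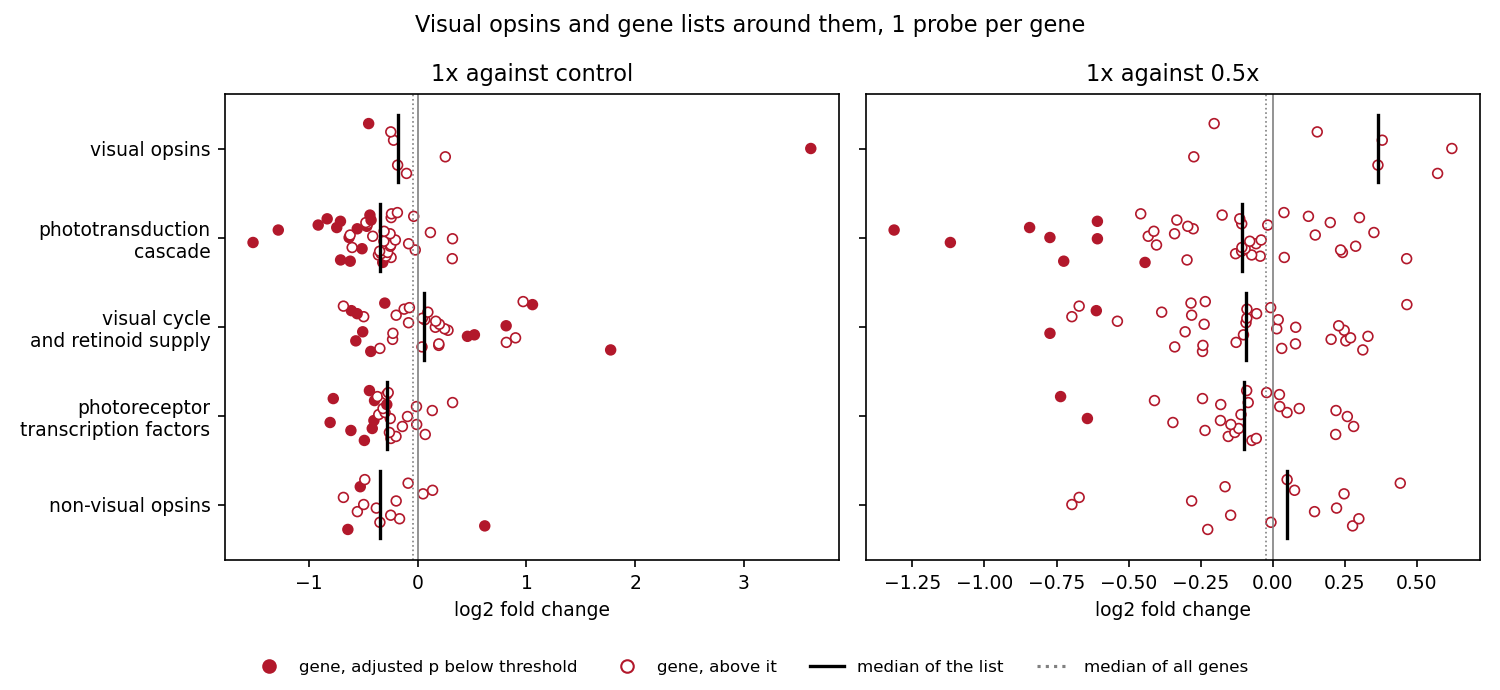
Log2 fold change of each measured gene in 5 lists, by 1 probe per gene, at 1x against control and at 1x against 0.5x. Filled points had an adjusted p below 0.05, black bars mark the list medians and the dotted line the median of all genes. Between 1x and 0.5x the median of the visual opsins lay at 0.37 (0.26 without opn1mw4) and that of the phototransduction cascade at -0.11.

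Genes that make and recycle the retinal chromophore were counted in the same way. Of 34 measured of 40, 5 rose and 6 fell at 1x relative to control, where 10.3% of all genes were higher and 16.3% lower. These counts are near the shares of all genes, and the list median was 0.05, against -0.05 for all genes. Leaving out control replicates 1 and 2 gave 3 higher and 4 lower, where 2022 of all 38803 probes were higher and 2256 lower. The carotenoid enzyme gene bco1l (1.77, adjusted p = 0.00134), the carotenoid uptake receptor scarb1 (1.06, adjusted p = 0.00412), the retinol dehydrogenase gene rdh12l (0.81, adjusted p = 0.0124) and the blood retinol carrier rbp4 (0.52, adjusted p = 0.0243) rose. The isomerase of the pigment epithelium rpe65a (-0.61, adjusted p = 0.0128), lrata, which makes retinyl esters (-0.57, adjusted p = 0.00926), the retinal-binding rlbp1a (-0.56, adjusted p = 0.0252; 2 of 3 probes down) and rbp5 (-0.51, adjusted p = 0.0165) fell. Of these 8, bco1l, rpe65a and lrata passed without control replicates 1 and 2. Within days 1 and 2, bco1l had 2.55 and 0.89 and rpe65a had -0.49 and -0.70.

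At 0.5x against control, 5 chromophore genes rose and 1 fell, where 4.36% of all genes were higher and 4.33% lower. With control replicates 1 and 2 left out, 1 was higher and 2 lower, where 375 of all 38803 probes were higher and 231 lower. The rises were led by bco1l (1.46, adjusted p = 0.00813), rbp4 (0.62, adjusted p = 0.0267), its relative rbp4l (0.54, adjusted p = 0.0172) and the retinal reductase dhrs3a (0.43, adjusted p = 0.0274), and lrata fell (-0.82, adjusted p = 0.00304). Of these 5 only lrata passed without those controls (adjusted p = 0.0178). At 1x against 0.5x, rbp4l (-0.77, adjusted p = 0.00204) and rpe65a (-0.61, adjusted p = 0.0307) were lower and 0 genes were higher.

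Transcription factors of photoreceptors and the early eye were lower or did not pass at 1x. Of 26 measured of 31, 9 fell and 0 rose relative to control, where 16.3% of all genes were lower and 10.3% higher. The list median was -0.54 within day 1 and -0.07 within day 2. Without control replicates 1 and 2, 2 were lower and 2 higher, where 2256 of all 38803 probes were lower and 2022 higher. The 9 included nrl, a rod factor (-0.81, adjusted p = 0.00304), the eye field gene six6b (-0.78, adjusted p = 0.00464), mef2cb (-0.62, adjusted p = 0.0488) and crx, an activator of photoreceptor genes (-0.49, adjusted p = 0.0155). Within day 2 these 4 had -0.67, -0.43, -0.67 and -0.12, and without control replicates 1 and 2 only nrl (adjusted p = 0.0197) and six6b (adjusted p = 0.0448) of them passed. The red cone factor thrb fell (-0.45, adjusted p = 0.0301), at -0.73 within day 1 and -0.09 within day 2.

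Apart from thrb and the rod factor nrl, the named factors tied to single opsins in zebrafish did not pass at 1x against control. The ultraviolet cone factor tbx2b had -0.27 (adjusted p = 0.0532), the blue cone factor foxq2 -0.20 (adjusted p = 0.207), six7, which is needed for green opsin expression, -0.37 (adjusted p = 0.0743) and the rod factor nr2e3 -0.01 (adjusted p = 0.984). At 0.5x against control only six6b passed (-0.54, adjusted p = 0.0471; adjusted p = 0.517 without control replicates 1 and 2), while six7 stood at 0.36, crx at -0.42, thrb at -0.36, tbx2b at -0.25, nr2e3 at 0.13 and foxq2 at -0.05. At 1x against 0.5x, six7 (-0.74, adjusted p = 0.0103) and otx5 (-0.64, adjusted p = 0.0202) were lower. In that comparison crx (-0.07), thrb (-0.09), tbx2b (-0.02), nr2e3 (-0.15) and foxq2 (-0.15) did not pass. The list median there was -0.10, at -0.0013 within day 1, where 0.5x was a single array, and -0.09 within day 2. Within-day values of six7 and otx5 are not given here.

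Opsins outside rods and cones had 15 measured of 33 genes. At 1x against control 1 of the 15 was higher and 2 were lower, where 10.3% of all genes were higher and 16.3% lower. The gene opn3, an opsin of the brain and other tissues, rose (0.62, adjusted p = 0.0188), and tmtopsa (-0.53, adjusted p = 0.0196) and exorh, the rhodopsin of the pineal organ (-0.64, adjusted p = 0.0203; 1 of 2 probes down), fell. For exorh the difference was -0.95 within day 1 and -0.36 within day 2, and without control replicates 1 and 2 neither exorh (adjusted p = 0.211) nor tmtopsa (adjusted p = 0.231) passed. At 0.5x against control limma called 0 of the 15, where 8.7% of all genes passed, and exorh had -0.42 (adjusted p = 0.14). At 1x against 0.5x it also called 0, where 4.32% of all genes passed, and exorh had -0.23 (adjusted p = 0.455). An unadjusted p under 0.05 was reached by 6 and 2 of the 15 in these comparisons, and the share of all genes at that level is not given here. Of 5 measured pineal markers 3 were lower and 0 higher at 1x against control, beside the 16.3% and 10.3% of all genes. Their mean per array was -0.47 to -0.23 at 1x and -0.23 to 0.43 in controls. Control replicates 1 and 2 had 0.43 and 0.39, and replicates 3 and 4 had -0.09 and -0.23.

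Cells around the photoreceptors were followed by their markers at 1x against control. Of the pigment epithelium 2 of 11 measured markers were lower and 0 higher, of Müller glia 1 of 6 was lower and 1 higher, and of bipolar cells 6 of 11 were lower and 0 higher. Over all genes 16.3% were lower and 10.3% higher. Of horizontal and amacrine cells 1 of 10 was lower, of ganglion cells 3 of 8 and of the lens 1 of 11, each with 0 higher. The bipolar mean was -1.16 to -0.95 at 1x and -1.08 to -0.01 in controls, and that of the lens was 5.24 to 5.50 at 1x and 4.29 to 5.77 in controls. Control replicates 1 and 2 had bipolar means of -0.01 and -0.20 and replicates 3 and 4 had -0.88 and -1.08. For the lens the same pairs had 4.29 and 4.82, and 5.51 and 5.77.

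The genes whose signal over the 14 arrays was most like that of each opsin were listed among 12803 named genes. Among those nearest to rho were dbnlb and chfr (Pearson r 0.973 and 0.973, Spearman rho 0.978 and 0.895). For opn1mw4 they were gdf9, arhgap11a and zgc:174653 (r 0.971, 0.950 and 0.930, Spearman rho 0.833, 0.749 and 0.631). The 4 control values of opn1mw4 were below background and are not measured levels. How far its r rests on the gap between control and effluent arrays was not tested. The gene ints3 was among the 3 nearest to both opn1sw2 (r 0.945) and opn1mw1 (r 0.949). The nearest to opn1sw1 was wipi1 (r 0.969), to opn1lw2 edc4 (r 0.959) and to opn1mw2 nr1d2b (r 0.821). Without the 2 arrays farthest from the median of the opsin, r was 0.975 for dbnlb, 0.951 for gdf9 and 0.741 for nr1d2b. These are descriptions of 14 arrays that share groups, slides and scan days.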

How the data were processed

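RNA of 14 wells was labelled with Cy3 from 200 ng each. The authors deposited the output of Agilent Feature Extraction 10.7, per the file headers: a processed signal, which is a linear intensity with background subtracted, and flags for probes well above background. They also deposited a log2 matrix of 36346 probes. Set against the scanner signals, differences between arrays of a slide correlated at 1.00, so it is log2 and runs the same way. These correlations do not show whether it was centred per probe within a slide. Slide 4 held no 1x array and slide 1 no 0.5x array. Such centring would take away part of a group difference, and the matrix was fitted without a slide term. A call lost in the matrix therefore does not show that a difference is absent. Its column medians ran from -0.0662 to 0.110. The sources used here do not say how it was made.

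Control spots and 73 spots marked as outliers were dropped, none was saturated, and spots of a probe were averaged. The log2 intensity less the 75th percentile of each array was used. The filter asked for a signal well above background on 4 or more arrays of any group, which 38803 of 43603 probes met. Groups were compared with limma 3.58.1 (R 4.3.3, lmFit and eBayes on all 14 arrays, no block) with Benjamini-Hochberg adjustment, and the fit was tested on simulated data. Every adjusted p is limma's. Names came through 25978 probe accessions found in a RefSeq gene table of the GRCz12tu assembly. Precision is limited by how many arrays there were, with a median standard error of 0.164 against control.

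Every opsin probe is described. Of each other list up to 4 genes per direction with the largest change past the threshold are named, and 13 photoreceptor genes whatever their call. Members and lists were chosen with earlier results of these data known, as were control replicates 1 and 2 for leaving out. The alternatives were normexp, quantile normalization, the percentile over probes detected on all arrays, the deposited matrix, no filter or a filter over all arrays, slide, scan day or replicate number as a term, each scan day alone, each array left out, and the mean of a gene's probes. Normexp used the median foreground signal. Whether replicate numbers pair the wells cannot be told. Same-numbered arrays had correlations of deviations from -0.22 to 0.49, and differently numbered arrays were not compared. No sequences were used here.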

Additional observations from a re-analysis of the deposited data

Results flagged for a closer look

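In groups of 4 or 5 arrays, a single array was marked where its gap to the nearest other array took up most of the range of the group (the upper limit of Dixon's test). Of 63 groups of opsin values, 11 were marked, where chance gives about 1 in 20, or 3.15. The values of a gene's probes are not independent, so several marks can stem from 1 array.

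For rho, 0.5x replicate 1 was far below the other 0.5x arrays on probe 1 (7.14), probe 4 (6.94), probe 5 (5.62) and probe 6 (3.93). On probe 2, control replicate 1 was far above the other controls (7.89). On probes 2 and 3, 1x replicate 5 was far above the other 1x arrays (7.51 and 7.46). On probe 2 of opn1sw1, 0.5x replicate 1 was far above the other 0.5x arrays (3.05). On probe 1 of opn1mw4, 1x replicate 2 was far above the other 1x arrays (-2.86). Of the probes below background in the group, control replicate 4 was far below the other controls on probe 2 of opn1mw3 (-8.60), and 0.5x replicate 5 far above the other 0.5x arrays on probe 2 of opn1mw4 (-8.00).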

How the results depend on the processing

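Of 1401 values of single opsin probes under alternatives, 1252 kept their direction and side of the threshold, 32 passed it anew, 61 no longer passed and 56 changed sign. The 56 came from 24 of 54 results, none of them called, and none passed after the change. The cause of these changes was not tested.

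Probes called at 1x against control (11167) became 18073 within scan day 1, 1556 within day 2, 4278 without control replicates 1 and 2, and 5963 to 13012 with each array left out. At 0.5x (3604) they became 2036 with normexp, 11720 and 834 within the days, 606 without control replicates 1 and 2, and 1114 to 9667 with each array left out. For 1x against 0.5x (1583) they became 0 in the deposited matrix and within day 1, 728 with slide as a term, 1033 within day 2, 3243 without control replicates 1 and 2, and 705 to 4631 with each array left out. With replicate number as a block they were 12834, 3984 and 1813. Higher against lower calls were 3163 and 13197 with normexp and 4911 and 5955 with quantile normalization at 1x, against 3826 and 7341 in the report. They were 1643 and 1356 with quantile normalization at 0.5x, against 1367 and 2237, and 445 and 1022 with normexp at 1x against 0.5x, where the report has 674 and 909. Normexp moved the median of all probes at 1x to -0.20, against -0.09.

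Opsin genes called at 1x (2) became 1 with normexp and the filter over all arrays (rho), 1 with quantile normalization, the deposited matrix, within day 2, without control replicates 1 and 2 and by the mean of probes (opn1mw4), 6 within day 1, and 1 to 3 with each array left out. At 0.5x (2) they became 0 in the matrix, 1 with normexp and the filter over all arrays (opn1mw1), 1 with slide as a term, within day 2, with the replicate block and without control replicates 1 and 2 (opn1mw4), 6 within day 1, where 0.5x was 1 array, and 1 to 5 with each array left out. For 1x against 0.5x (0) they became 2 without control replicates 1 and 2, which enter there only through the shared estimate of the spread, and 1 by the mean of probes. The filter over all arrays removes opn1mw4, and the normexp offset by itself narrows its difference. The replicate block changed no other count of opsin genes.

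Changes of sign at 1x against control were as follows. Within day 1, opn1mw2 had -0.0873 on probe 1 and -0.0961 on probe 2. Within day 2, rho had -0.0642, -0.12 and -0.28 on probes 6, 7 and 8, opn1sw1 0.26 on probe 1, opn1sw2 0.056, opn1mw1 0.24 and 0.40, and opn1lw2 0.32 on probe 1. Without control replicates 1 and 2, rho had -0.14, -0.17 and -0.23 on probes 6, 7 and 8, opn1sw1 0.29, opn1mw1 0.12 and 0.18, and opn1lw2 0.41. With each array left out, rho probe 6 ranged from -0.0956 to 0.19, probe 8 from -0.0194 to 0.55, opn1mw2 probe 2 from -0.0256 to 0.34 and opn1lw2 probe 1 from -0.28 to 0.0768.

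At 0.5x against control, the matrix gave 0.19 for opn1sw1 probe 2, 0.0015 for opn1mw2 probe 2 and 0.41 for opn1lw2 probe 2. Slide as a term gave 0.0582 for opn1lw2 probe 2 and -0.0462 for rho probe 8, and scan day as a term -0.0274 for rho probe 8. Within day 1, opn1sw1 probe 2 had 0.39 and opn1lw2 probe 2 0.0993. Within day 2, rho probes 6, 7 and 8 had -0.033, -0.19 and -0.40. Without control replicates 1 and 2 they had -0.10, -0.25 and -0.42, and opn1lw2 probe 2 had 0.0642. With each array left out, rho probes 6, 7 and 8 ranged from -0.0576 to 0.22, -0.0705 to 0.46 and -0.21 to 0.36, and opn1sw1 probe 2 from -0.31 to 0.0969.

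In the comparison of 1x with 0.5x, quantile normalization gave 0.0094, 0.0435, 0.0225 and 0.0722 for rho probes 1, 3, 4 and 6. Slide as a term gave 0.0552 and scan day as a term 0.0726 for rho probe 6. Within day 1, rho probes 1 to 6 had 0.10, 0.0644, 0.14, 0.0819, 0.0277 and 0.19. The matrix gave -0.0503 for opn1sw1 probe 1, and within day 2 opn1mw2 probe 1 had 0.16. With each array left out, rho probe 6 ranged from -0.11 to 0.0022. Signal near background limits opn1mw3, which was not tested, and opn1mw4, whose difference from control is given against a floor.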
